A study of Mus musculus with 44 samples.

Results

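Peroxiredoxins and the enzymes of glutathione synthesis were examined in the striatum of C57BL/6J (B6) and DBA/2J (D2) mice. The genes listed were Prdx1, Prdx2, Prdx4, Prdx5, Prdx6, Gclm, Gclc, Gss, Gpx1 and Gpx4. They were chosen by symbol, and the list was selected on values of these same arrays, since the strain difference of Prdx2 was already known. Strain differences are therefore given as a description with no p-value, and calls of them support nothing further. Of the 10 genes, 8 had a value at a probe of their own, of 18101 genes with a value in all, and 2 (Prdx5 and Prdx6) had no probe annotated to them here. On the Affymetrix MOE430 2.0 array, 15 probesets were annotated to a single listed gene and 10 of these had values, of 38870 probesets with values. On the Illumina MouseRef-8 v2 array, 13 probes with normalized values belonged to 8 of the genes, of 14185 probes.

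All mice were adult, naïve and of inbred strains, and the study describes no transgene and no treatment. Sequence variants that the strains carry were not examined here. The Affymetrix arrays held 5 female and 5 male B6 mice and 5 female and 5 male D2 mice. The Illumina arrays held 12 male B6 and 12 male D2 mice. Each mouse had 1 array, so the replicates were separate animals, and the striatum was dissected by hand from a coronal slice.

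Peroxiredoxins are small enzymes that reduce hydrogen peroxide through a reactive cysteine and are themselves reduced mostly by thioredoxin. Glutathione, the main small thiol of the cell, is made in a pair of steps: glutamate-cysteine ligase, built from a catalytic subunit (Gclc) and a modifier subunit (Gclm), joins glutamate and cysteine, and glutathione synthetase (Gss) adds glycine. Glutathione peroxidases such as Gpx1 and Gpx4, which are selenoproteins, then spend glutathione to reduce peroxides, Gpx4 acting on lipid peroxides in membranes. In brain, Prdx2 is known as a peroxiredoxin of neurons, and it is also one of the most abundant proteins of red blood cells.

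Prdx2 was the gene whose probes disagreed, so the beginnings of its 3 Illumina probes are shown. Each is the first 30 of the 50 bases of the probe, 5′ to 3′, decoded from the identifier in the deposited table that spells out the probe's sequence.
ILMN_2638354: gcttgtgcaactgactctgtagttatgcct
ILMN_1242829: ctgagcatggtgggacacagtgagaccaaa
ILMN_2773554: aagggtgtccttcgccagatcacagtcaat
Over all 50 bases, no pair of these probes shared a run of more than 7 bases, so they read different stretches. None of them shared a run of 20 bases with any other of the 14185 probes. Prdx2 lies on chromosome 8 of the mouse. The place of each probe in the Prdx2 transcripts, and whether it covers a base that differs between B6 and D2, was not determined here. The normalized Illumina table held every probe detected on at least 7 arrays and no others, so probes that cover such a base had not been taken out of it.

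A few arrays stood apart. On the Affymetrix arrays, B6 female 64 lay between the strains. At 38 probesets that separated the other arrays by at least 2 log2 units, its median antilog value was at 0.513 of the way from the mean of the D2 arrays to that of the B6 arrays. Each other array was placed in the same way, at the 11 to 13 probesets that separated the rest when it was left out. The other B6 arrays lay between 0.931 and 1.16, and the D2 arrays between -0.00636 and 0.00919. On the Illumina arrays, D2 arrays 3, 5, 6 and 12 had mean bead signals of 599 to 985 before normalization, against 1223 to 1849 on the other 20 arrays. The mean over arrays was 1493 in B6 and 1268 in D2, a ratio of 1.18, and without those 4 D2 arrays the ratio was 0.998. The main changes without B6 female 64 or without the 4 D2 arrays are given beside the genes, and no call of the listed genes changed without them.

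Among the Affymetrix probesets, 8 of the 10 with values passed the filter on low values (the upper 50% by mean), and 2 of these 8, 1 of Prdx2 and 1 of Gclm, were called between strains at an adjusted p under 0.01 in limma. Both were higher in B6. Over all 19437 probesets tested, 9.70% were called (914 with B6 and 971 with D2 as the higher strain). The median B6 minus D2 difference was 0.12 log2 units over the 8 and -0.03 over all. On the Illumina arrays, 10 of 13 probes passed the filter (detected on every array of at least 1 strain), and 4 of these 10 were called, 3 of Prdx2 and 1 of Gclm. Over all 11072 probes tested, 9.77% were called (594 with B6 and 488 with D2 as the higher strain). Since the list was chosen with this contrast known, nothing is read from these counts.

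**Figure D1:**
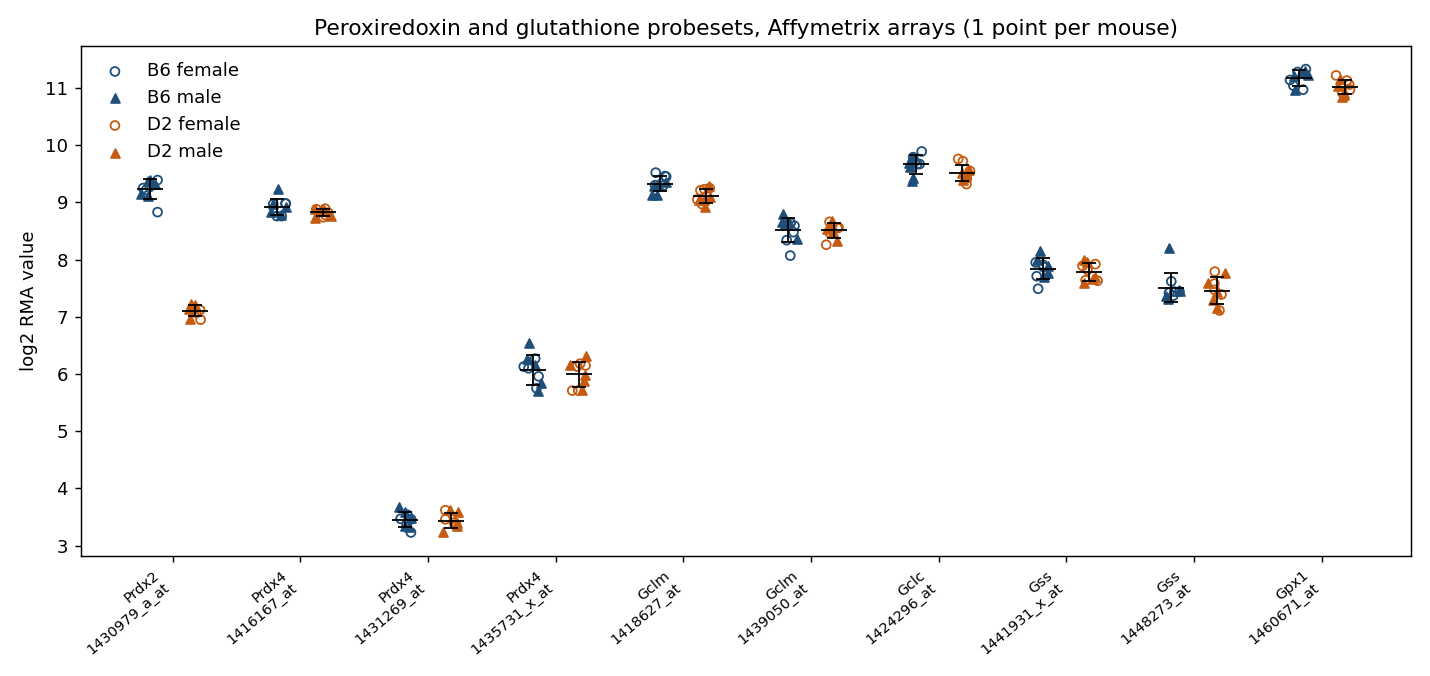
Log2 RMA value (vertical axis) of each of the 10 Affymetrix probesets, with 1 point per mouse (blue B6, orange D2, circles females, triangles males); bars are the mean ± SD over 10 mice. The strains are apart at Prdx2 1430979_a_at, with B6 at 8.83 to 9.39 and D2 at 6.95 to 7.23, and they overlap at the other probesets.

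On the Affymetrix arrays, the 1 Prdx2 probeset with values read 4.36 times as high in B6 as in D2. At probeset 1430979_a_at, the log2 values of the 5 B6 females were 9.27, 9.39, 9.25, 8.83 and 9.22, and those of the 5 B6 males were 9.12, 9.32, 9.38, 9.39 and 9.14. In D2, the females had 7.12, 7.07, 7.11, 6.95 and 7.13 and the males 7.2, 7.13, 7.18, 6.96 and 7.23. The strains did not overlap, the lowest B6 mouse lying 1.6 above the highest D2 mouse, and the lowest B6 value was that of female 64. For comparison, 624 of the 19437 probesets tested (3.21%) had strains that did not overlap. The means were 9.23 ± 0.17 in B6 and 7.11 ± 0.09 in D2 (SD, n = 10 each). The difference was 2.123 log2 units (SE 0.061, 95% interval 2.00 to 2.25). Without B6 female 64 it was 2.17 (SE 0.049). The second Prdx2 probeset on the array, 1418506_a_at, had no values, so the Affymetrix measurement of this gene rests on 1 probeset.

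The 3 Prdx2 probes on the Illumina arrays went in opposite directions. At ILMN_2638354, the normalized value, on the variance-stabilized (VST) scale of the deposited table, was 9.92 at the lowest, 10.56 at the median and 10.86 at the highest of 12 B6 mice. In D2 the lowest, median and highest were 9.25, 9.46 and 9.64. No D2 mouse reached the lowest B6 mouse, and the B6 minus D2 difference was 1.09 VST units (SE 0.070, 95% interval 0.94 to 1.23), or 1.04 without D2 arrays 3, 5, 6 and 12. VST differences are not fold changes. Before normalization, the mean bead signal of this probe was 1717 ± 378 in B6 and 550 ± 183 in D2 (SD, n = 12 each), a ratio of 3.12, or 2.63 without D2 arrays 3, 5, 6 and 12.

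ILMN_1242829 also read higher in B6. Its VST values were 8.96, 9.41 and 9.64 (lowest, median, highest) in B6 and 8.66, 8.76 and 8.87 in D2, with no overlap. The difference was 0.68 (SE 0.057). At a detection p under 0.05, all 12 B6 arrays and 0 of 12 D2 arrays detected the probe. In D2 its signal of 219 ± 38.1 (SD, n = 12) was thus not well above background. Read as a bound, with each D2 array at the higher of its own value and its lowest detected value, B6 was at least 0.47 VST units higher. Strains did not overlap at 319 of the 11072 probes tested (2.88%).

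ILMN_2773554, the brightest of the 3 Prdx2 probes in both strains, read the other way. Its VST values were 13.02, 13.28 and 13.57 (lowest, median, highest) in B6 and 13.32, 13.77 and 14.24 in D2. Here 11 of 12 D2 mice were above every B6 mouse, and the exception was D2 array 7. The difference was -0.54 (SE 0.087, 95% interval -0.72 to -0.37), that is, higher in D2. Without D2 arrays 3, 5, 6 and 12 it was -0.53. The raw bead signal was 12404 ± 2047 in B6 and 15202 ± 6691 in D2 (SD, n = 12 each), a D2 over B6 ratio of 1.23, or 1.47 without the same 4 D2 arrays. Before normalization the strains overlapped widely, from 9134 to 16298 in B6 and from 5431 to 28088 in D2, and the lowest D2 value was that of array 6. When log bead signals were centred by array median instead, without the deposited normalization, the difference was -0.25 log2 units and was no longer called. That centring moves the median difference of all probes by 0.20, to 0.18, and relative to this median the probe stood at -0.44.

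**Figure D2:**
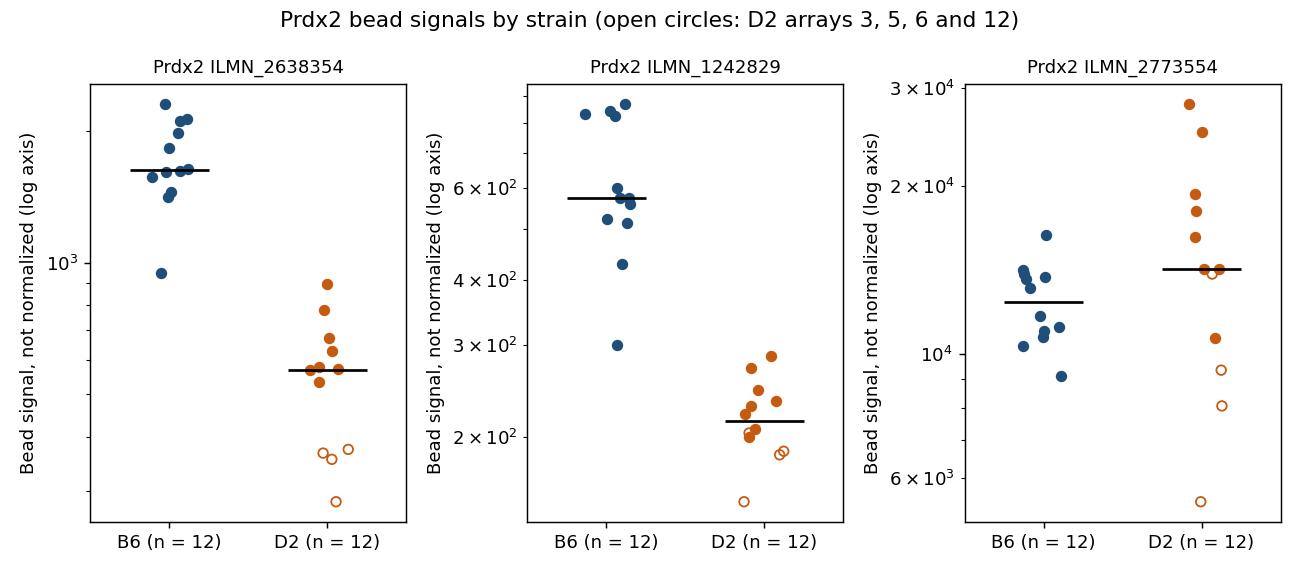
Bead signal before normalization (vertical log axis) of the 3 Prdx2 probes in 12 B6 and 12 D2 mice, 1 point per mouse, with the median as a line; open circles are D2 arrays 3, 5, 6 and 12. At ILMN_2638354 and ILMN_1242829 every B6 mouse is above every D2 mouse, while at ILMN_2773554 the strains overlap and the highest D2 mouse reaches 28088.

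Deviations of the Prdx2 probes from the strain means were compared among mice. For ILMN_2638354 and ILMN_2773554, detected on all arrays, Pearson's r was -0.08 (Spearman's rho 0.10) over the 24 Illumina mice. ILMN_1242829 was not detected in D2 and was compared within the 12 B6 mice, where r was 0.06 (rho -0.15) with ILMN_2638354 and -0.03 (rho -0.19) with ILMN_2773554. These are descriptions over arrays that share their normalization. Differences in splicing or transcript ends between strains were not tested.

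Because Prdx2 is abundant in red blood cells, markers of these cells were read beside it. On the Affymetrix arrays, 3 of 8 listed markers (Hba-a1, Alas2 and Slc4a1) had values and none passed the filter. Their summed antilog level was 77.3 to 205 in B6 and 77.5 to 111 in D2. On the Illumina arrays, 4 of 8 markers had values and 2 were tested. Hbb-bt, a beta-globin gene, was called higher in B6, with a difference of 1.06 VST units, and Hba-a1, an alpha-globin gene, was not called, at 0.54 (SE 0.20). Whether these globin probes cover bases that differ between the strains was not determined, so their values are not a measure of blood content alone. The summed bead signal of the 4 markers, which is not normalized, was 12818 to 31056 in B6 and 5623 to 26960 in D2. The 4 D2 arrays of low signal gave 5623 to 11939 and the other 8 gave 7607 to 26960, and no marker was listed at 0. The part of blood in the Prdx2 values was not tested. In whole tissue, fewer cells of a type and less RNA per cell cannot be told apart.

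Prdx1, the cytosolic peroxiredoxin closest to Prdx2, was measured by 2 Illumina probes, and neither was called. At ILMN_1223738 the VST values were 12.65, 13.3 and 13.6 (lowest, median, highest) in B6 and 11.26, 12.93 and 13.47 in D2. The D2 mice reached lower than any B6 mouse, and the groups overlapped. The difference was 0.54 with a wide interval, 0.10 to 0.98. The 4 D2 arrays of low signal gave values of 11.26 to 12.44 and the other 8 gave 12.47 to 13.47. Without those 4 arrays the Prdx1 difference was 0.12 (SE 0.14, 95% interval -0.17 to 0.40). At the other Prdx1 probe, ILMN_2989706, the difference was 0.05 (95% interval -0.03 to 0.13), or 0.03 without those arrays, with B6 at 9.13 ± 0.09 and D2 at 9.08 ± 0.07 (SD, n = 12 each).

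On the Affymetrix arrays, no probeset was annotated to Prdx1 alone. All 5 probesets listed for it were also annotated to its pseudogene Gm21399, and only 1 of the 5, 1437014_x_at, had values. That probeset differed by -0.01 log2 units (95% interval -0.25 to 0.24). Probes that match the genome more than once were left out of these values. Which of Prdx1 and Gm21399 the remaining probes read was not determined here.

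Prdx4, the peroxiredoxin of the endoplasmic reticulum, lies on the X chromosome and was not called on either array. Probeset 1416167_at gave log2 values of 8.76 to 9.23 in B6, with a median of 8.95, and 8.73 to 8.89 in D2, with a median of 8.85. The strains overlapped and the difference was 0.09 (95% interval -0.02 to 0.20). Probe ILMN_2717045 gave 0.02 VST units (95% interval -0.11 to 0.15), and -0.02 (95% interval -0.17 to 0.12) without the 4 D2 arrays of low signal. The Prdx4 probesets 1435731_x_at (6.07 ± 0.26 in B6 and 5.99 ± 0.22 in D2, SD, n = 10 each) and 1431269_at (3.45 ± 0.13 and 3.44 ± 0.13) were below the filter.

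**Figure D3:**
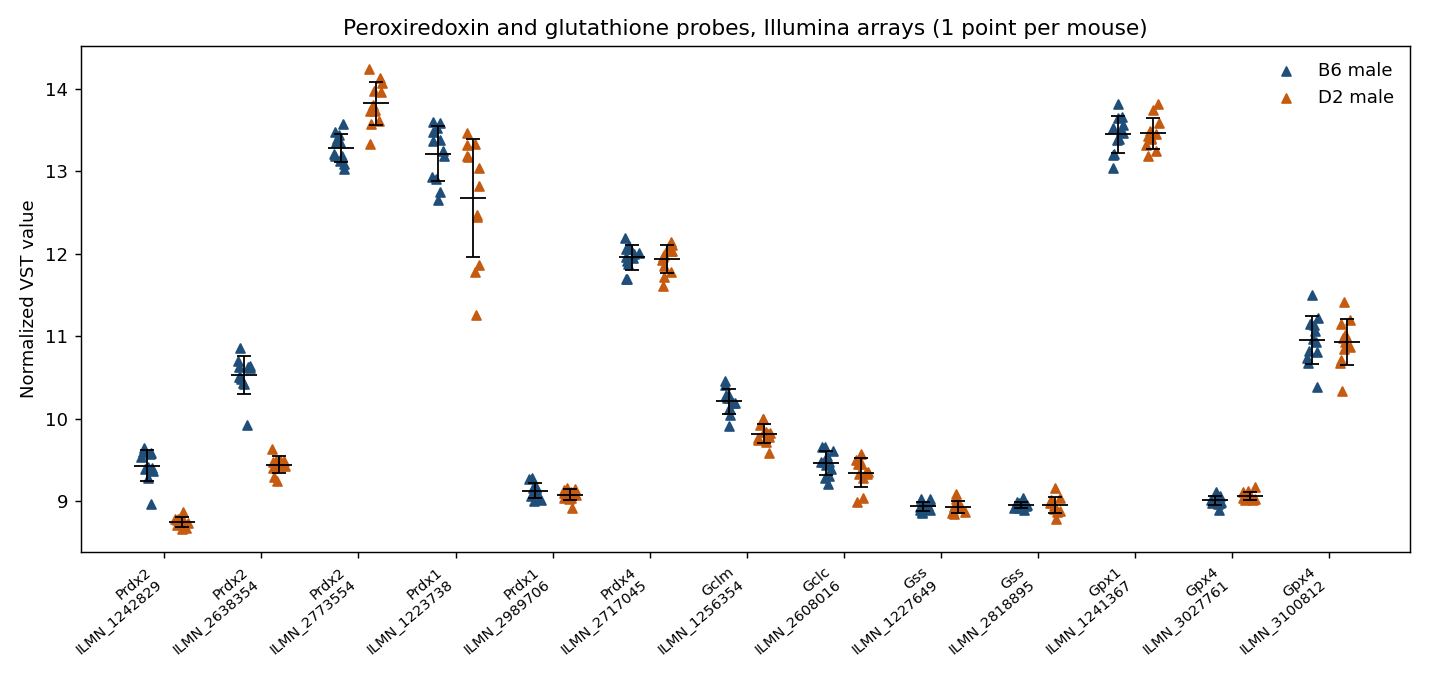
Normalized VST value (vertical axis) of each of the 13 Illumina probes, with 1 point per mouse (blue B6, orange D2, all males); bars are the mean ± SD over 12 mice. The Prdx2 probes ILMN_2638354 and ILMN_1242829 are higher in B6, ILMN_2773554 is higher in D2, and the D2 points of Prdx1 ILMN_1223738 extend from 11.26 to 13.47.

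Among the enzymes of glutathione synthesis, Gclm was higher in B6 on both arrays, but not at every probe. At ILMN_1256354 the VST values were 9.92, 10.22 and 10.46 (lowest, median, highest) in B6 and 9.58, 9.82 and 10 in D2. Of the B6 mice, 11 of 12 were above every D2 mouse. The difference was 0.39 (SE 0.056, 95% interval 0.27 to 0.50). The mean bead signal was 1307 ± 258 in B6 and 770 ± 251 in D2 (SD, n = 12 each), a ratio of 1.70, and the ratio was 1.43 without D2 arrays 3, 5, 6 and 12. On the same unnormalized scale, Gpx1, Gpx4 ILMN_3100812 and Prdx4, which were not called, had ratios of 1.22, 1.26 and 1.22, and 1.06, 1.06 and 0.988 without those arrays.

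At the Affymetrix probeset 1418627_at, Gclm had log2 values of 9.29, 9.52, 9.46, 9.3 and 9.45 in B6 females and 9.13, 9.36, 9.28, 9.33 and 9.13 in B6 males. The D2 females had 9.25, 9.21, 9.23, 9.05 and 8.97 and the D2 males 8.92, 9.04, 9.28, 9.05 and 9.09. The strains overlapped, with 7 of 10 B6 mice above every D2 mouse. The difference was 0.22 (SE 0.054), or 1.16-fold (95% interval 1.07 to 1.26). It was 0.26 in females alone and 0.17 in males alone, and not called in either. The call lay near the threshold and was lost on leaving out any of 13 of the 20 arrays (B6 females 62, 63 and 65, B6 males 67, 68 and 69, D2 females 72, 74 and 75, and D2 males 76, 77, 79 and 80), which left differences of 0.19 to 0.22. The second Gclm probeset, 1439050_at, had means of 8.52 ± 0.21 in B6 and 8.51 ± 0.13 in D2 (SD, n = 10 each), and a difference of 0.01 (95% interval -0.15 to 0.16). Its lowest value, 8.07, was that of B6 female 64, without which the difference was 0.05.

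Gclc, the catalytic subunit, was not called on either array, with B6 the higher in both. Probeset 1424296_at gave 9.38 to 9.89 in B6, with a median of 9.68, and 9.32 to 9.76 in D2, with a median of 9.5, a difference of 0.15 (95% interval 0.02 to 0.28, before adjustment over all probesets). Probe ILMN_2608016 gave 0.11 VST units (95% interval -0.02 to 0.25), and 0.06 (95% interval -0.06 to 0.18) without D2 arrays 3, 5, 6 and 12.

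The covariation of the 2 subunits was read among mice of the same group. Over the 20 Affymetrix mice, deviations of Gclm 1418627_at and Gclc 1424296_at from the means of strain and sex had a Pearson's r of 0.71 (Spearman's rho 0.73), and r was 0.73 within B6 and 0.70 within D2 (n = 10 each). On the Illumina arrays r was 0.37 (rho 0.40) over 24 mice, 0.64 (rho 0.76) within B6 and 0.11 (rho 0.03) within D2 (n = 12 each). The Gclm probeset without a strain difference, 1439050_at, had an r of -0.07 with the other Gclm probeset and of -0.45 with Gclc. Arrays share a normalization, and these correlations are given as descriptions.

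Gss, the synthetase, showed no call on either array. Its Affymetrix probesets differed by 0.06 (1441931_x_at, 95% interval -0.09 to 0.22) and 0.05 (1448273_at, 95% interval -0.17 to 0.27), and their deviations had an r of 0.64 over 20 mice (rho 0.62). Both Illumina probes of Gss were below the filter. ILMN_1227649 was detected on 8 B6 and 4 D2 arrays and ILMN_2818895 on 9 and 6 of 12 each. Their means were 8.94 ± 0.06 in B6 and 8.93 ± 0.07 in D2, and 8.95 ± 0.04 and 8.96 ± 0.10 (SD, n = 12 each).

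Of the glutathione peroxidases, Gpx1 gave 10.97 to 11.33 in B6, with a median of 11.22, and 10.85 to 11.22 in D2, with a median of 11 at 1460671_at. That difference of 0.16 log2 units (95% interval 0.03 to 0.28, before adjustment) was not called, and the groups overlapped. The Illumina probe of Gpx1 gave -0.01 VST units (95% interval -0.18 to 0.15), and 0.09 (95% interval -0.07 to 0.25) without the 4 D2 arrays of low signal. Gpx4 had no Affymetrix value. Its Illumina probe ILMN_3100812 gave 0.02 (95% interval -0.21 to 0.25), with B6 at 10.95 ± 0.29 and D2 at 10.93 ± 0.28 (SD, n = 12 each). ILMN_3027761, detected on 11 of 12 arrays of each strain and so not tested, had means of 9.01 ± 0.06 in B6 and 9.07 ± 0.05 in D2.

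**Figure D4:**
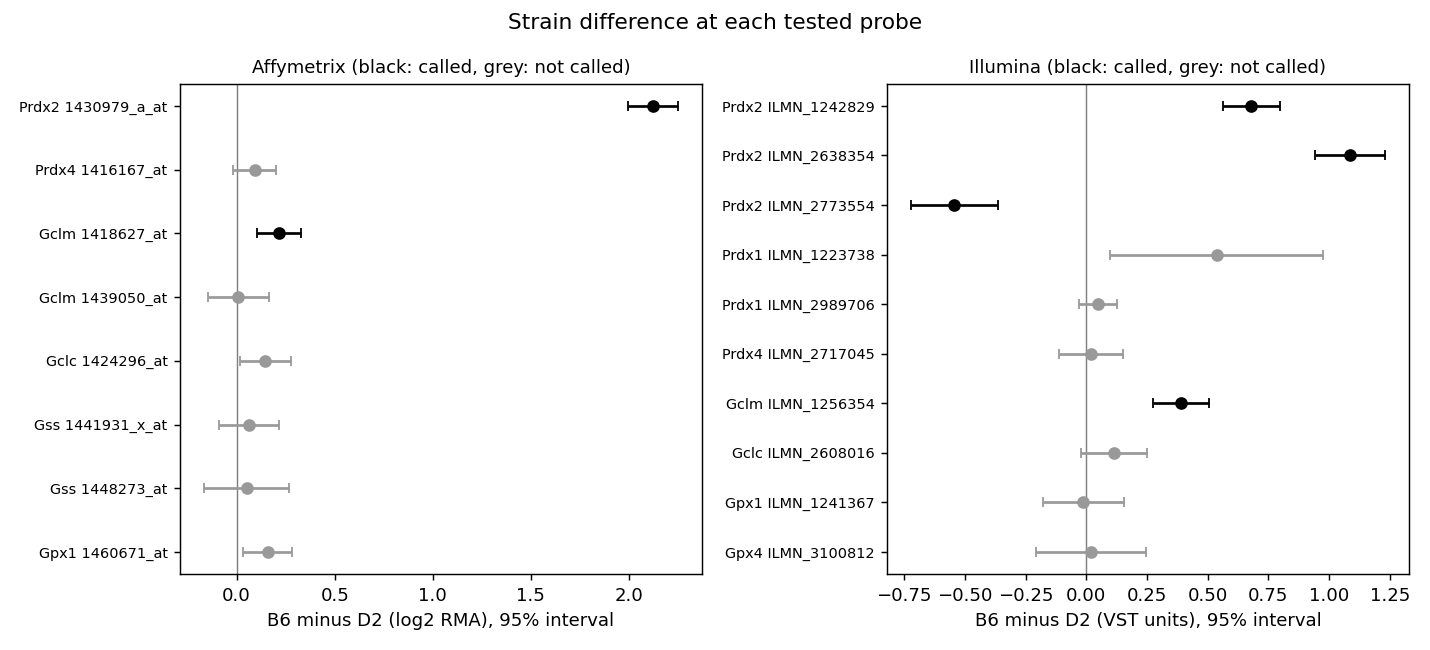
B6 minus D2 difference with its 95% interval (horizontal axes, log2 RMA on the left, VST units on the right) at the 8 Affymetrix probesets and 10 Illumina probes tested; black marks are called at an adjusted p under 0.01 and grey marks are not. Of the Prdx2 probes, 3 lie right of 0 and ILMN_2773554 lies left of it, at -0.54.

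Sex, which the choice of genes did not use, was tested on the Affymetrix arrays. None of the 8 probesets was called (adjusted p = 0.9997 for each in limma), and 0 of the 8 had an unadjusted p under 0.05. Over all 19437 probesets, 0.0257% were called for sex, and 729 had an unadjusted p under 0.05. Prdx2 differed by -0.07 between females and males (95% interval -0.20 to 0.06). The largest female minus male differences were 0.12 (SE 0.062) for Gclc, 0.11 (SE 0.054) for Gclm 1418627_at and -0.11 (SE 0.075) for Gclm 1439050_at. For the interaction of strain and sex, 0 of the 8 were called in limma and 0 had an unadjusted p under 0.05, against 0% and 347 of all 19437 probesets. The strain difference of Prdx2 was 2.116 in females and 2.13 in males, and the difference between these was -0.01 (95% interval -0.28 to 0.25).

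Other genes of the same pathways were counted from lists drawn up by function. The list of the thioredoxin system and partners of peroxiredoxins held thioredoxins, their reductases, Srxn1, Txnip, the Sesn genes and Prdx3, itself a peroxiredoxin. Of this list, 0 of 10 genes tested on the Affymetrix arrays and 0 of 10 on the Illumina arrays were called. By probe these were 0 of 19 and 0 of 14. In the list of glutathione recycling and supply, 2 of 14 genes were called on the Affymetrix arrays, both higher in D2, and 4 of 13 on the Illumina arrays, 2 in each direction. By probe, 2 of 19 and 4 of 20 of that list were called, and the medians of the differences were -0.05 log2 units and 0.01 VST units.

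Glrx, a glutaredoxin that uses glutathione to reduce protein thiols, was higher in D2 on both arrays, with B6 minus D2 differences of -0.40 log2 units (SE 0.098) and -0.56 VST units (SE 0.076). Gsr, glutathione reductase, which returns oxidized glutathione to its reduced form, was called at 1 of its 2 Affymetrix probesets, 1421817_at, with a difference of -0.23 (SE 0.059). The other, 1421816_at, gave -0.26 (SE 0.069) and was not called. Gsr was named after its values were seen. Slc7a11, the cystine transporter that supplies cysteine for glutathione, was called higher in B6 at its Illumina probe (0.39, SE 0.070), while its tested Affymetrix probeset gave -0.07 (SE 0.070). Idh1, an enzyme that makes NADPH, was called higher in D2 on the Illumina arrays (-0.34, SE 0.057). Ggct, which breaks down gamma-glutamyl peptides, was called higher in B6 at 1 of its 4 Illumina probes (ILMN_2694767, 0.21, SE 0.038), and its tested Affymetrix probeset gave -0.08 (SE 0.059). Affymetrix probesets of Ggct and Slc7a11 below the filter had higher means in B6 and were not tested. The B6 and D2 means were 6.05 and 5.80 (Ggct 1429090_at), 5.72 and 5.47 (Ggct 1445855_at), and 6.31 and 6.005 (Slc7a11 1443536_at).

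Among other glutathione peroxidases and transferases, 2 of 13 genes were called on the Affymetrix arrays and 1 of 11 on the Illumina arrays. By probe these were 2 of 15 and 1 of 17, against 9.70% and 9.77% of all probes tested. Gsto1, an omega-class glutathione transferase, was higher in B6 by 0.49 log2 units (SE 0.049) and gave 0.32 VST units (SE 0.096, not called) on the Illumina array. Mgst3, a microsomal transferase, was higher in D2 at 1448300_at (-0.67, SE 0.11) and at ILMN_2615035 (-0.51, SE 0.13), while ILMN_1238479 gave -0.06 (SE 0.22). Of superoxide dismutases and catalase, 0 of 5 genes and 1 of 5 were called (0 of 8 and 1 of 5 by probe). The called gene was Ccs, the copper chaperone of Sod1, with -0.31 VST units (SE 0.077) on the Illumina arrays and -0.14 log2 units (SE 0.050, not called) on the Affymetrix arrays. Nrf2 is the transcription factor of the antioxidant response. In the list around it, 0 of 6 and 1 of 4 genes were called (0 of 8 and 1 of 7 by probe). That gene was Mafg, a small Maf partner of Nrf2, higher in D2 on the Illumina arrays (-0.24, SE 0.061) and at -0.07 and 0 at its 2 Affymetrix probesets.

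Some markers of glial cells differed between strains as well. On each array, 4 of 6 microglia markers passed the call, with B6 above D2. By probe these were 4 of 8 on the Affymetrix and 4 of 7 on the Illumina arrays, against 9.70% and 9.77% of all probes. Their summed level over 6 markers was 2375 to 3073 in B6 and 1861 to 2276 in D2 in antilog Affymetrix units, with no overlap. The markers were not alike. C1qb 1417063_at (0.89 log2 units), C1qc (1.12), Fcer1g (0.26) and Tyrobp (0.33) were called on the Affymetrix arrays. C1qa (0.10), the Cx3cr1 probesets (0.02 and -0.06) and C1qb 1434366_x_at (-0.07) were not. On the Illumina arrays, Aif1 gave 0.02 VST units at ILMN_1212938 and -0.14 at ILMN_2804487, and neither was called. Of 6 oligodendrocyte markers, 1 was called higher in B6 on the Affymetrix arrays and 5 on the Illumina arrays (2 of 15 and 8 of 13 by probe). The summed Affymetrix level of these markers was 27840 to 37398 in B6 and 21119 to 33580 in D2. Of 7 astrocyte markers, 1 (Slc1a2, a glutamate transporter) was called on each array (1 of 17 and 3 of 11 by probe). It was higher in D2 at 1439940_at (-1.54), ILMN_3076439 (-0.45) and ILMN_3123195 (-0.28), and higher in B6 at ILMN_2642339 (0.18). Its other tested Affymetrix probesets, 1438194_at, the brightest, and 1451627_a_at, gave 0.05 and -0.11 and were not called. The astrocyte markers had overlapping summed Affymetrix levels of 14490 to 16312 and 13747 to 17267. No marker was listed at 0. Markers of medium spiny neurons, the main neurons of the striatum, were present. Of 8 listed, 6 were tested on the Affymetrix arrays with 0 called and 5 on the Illumina arrays with 1 called. By probe these were 0 of 8 and 1 of 6. Choroid plexus markers varied widely between mice, and none was called. Their summed Affymetrix level was 573 to 21316 in B6 and 287 to 20719 in D2. Their summed bead signal, which is not normalized, was 678 to 71233 in B6 (median 6870) and 477 to 54590 in D2 (median 759). The part of cell composition or dissection in the differences of Prdx2 and Gclm was not tested.

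The promoters of the genes were read for the core of the antioxidant response element, TGACNNNGC, on both strands. RefSeq windows of 300 bases (250 before to 50 after a start, build GRCm38.p6) were given for 8 of the 10 genes, with 4 windows for Gpx4. For Gclm and Prdx4 the start that places the window lies inside the gene as annotated, not at its outer end. The same holds for every Gpx4 window except chr10:80046916-80047215. In these windows 2 of the genes, Gclm and Prdx1, held the motif once each. Of all 32851 windows, 12.4% held it. These 2 stretches are shown since Gclm differed between strains and Prdx1 did not pass the call, with the motif in capitals as it lies on the opposite strand.
Gclm: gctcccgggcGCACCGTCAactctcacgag
Prdx1: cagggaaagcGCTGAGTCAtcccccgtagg
The first base of the motif lay 134 bases before the start that places the window of Gclm ( chr3:122245307-122245606, plus strand) and 133 bases before that of Prdx1 (chr4:116685349-116685648, plus strand). The Prdx1 match also contains TGAGTCA, the AP-1 motif. The window of Prdx2 held no match in these letters. A match is a description of the reference sequence, which is that of B6, and binding was not measured.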

How the data were processed

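Striatal RNA was measured on 20 Affymetrix and 24 Illumina arrays, with 1 array per mouse. For the Affymetrix arrays the authors deposited log2 values from RMA, that is, background-corrected, quantile-normalized and summarized perfect-match signals, made without the probes that cover a SNP or match the genome more than once. The Illumina values were deposited by the authors on a VST scale, which resembles log2, and had the same distribution on every array. The bead signal intensity was deposited without normalization, with a detection p-value per probe from the authors' software. The series table of Illumina values was identical to the deposited normalized table and gave no separate alternative. The study's RNA-Seq libraries were not analysed here.

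Affymetrix probesets in the upper 50% by mean and Illumina probes detected (p under 0.05) on all 12 arrays of a strain were tested in limma 3.58.1 (lmFit, eBayes) under R 4.3.3. Sex was a covariate on the Affymetrix arrays. P-values were adjusted over all probes tested by the method of Benjamini and Hochberg and called at 0.01, and no MAS5 detection calls were used. The number of arrays limits the precision.

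The genes and lists were chosen with earlier results of these data known. Every probe annotated to exactly 1 listed gene was described, with up to 4 called genes of each pathway list by lowest adjusted p. Names come from the platform annotations and, for promoters, from RefSeq. Illumina probe sequences were decoded from their identifiers, which gave a padding base A in position 51 for 14185 of 14185 probes. Alternatives covered filters, normalization, covariates, single sexes, arrays that stood apart, each array left out in turn, a replicate block and a threshold of 0.05.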

Additional observations from a re-analysis of the deposited data

Results flagged for a closer look

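Within the Affymetrix groups of 5 mice, 44 groups of values (11 probesets in 4 groups) were searched for a single mouse far from the others, and 3 stood out. Chance gives such a gap in about 1 in 20 groups. At Gss 1448273_at, B6 male 67 had a log2 value of 8.20, with the other B6 males at 7.31 to 7.47, and B6 female 65 had 7.62, with the other B6 females at 7.37 to 7.44. At Gpx1 1460671_at, B6 male 66 had 10.97, with the other B6 males at 11.21 to 11.29. No value of Prdx2 or Gclm stood out by this measure.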

How the results depend on the processing

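No called difference changed direction under any alternative run. On the Affymetrix arrays the count of called probesets among the listed genes was 2, and it was 1, Prdx2 alone, without the sex covariate, in females only and in males only, and 1 to 2 on leaving out each array in turn. For Gclm 1418627_at, 16 of 28 alternatives ended the call. The counts for sex and for the interaction remained 0 throughout, at an adjusted p under 0.05 too. On the Illumina arrays the count was 4, and 3 to 4 under the alternatives, with 3 when only probes detected on all 24 arrays were tested, which leaves out ILMN_1242829, and 3 with bead signals centred on array medians. The latter moved the split of all calls from 594 against 488 (higher in B6 against higher in D2) to 719 against 123. None of the calls of the 4 Prdx2 probes and the Gclm Illumina probe was lost on leaving out 1 array. On log2 bead signals, which are other units, the Gclm difference was 0.74 after median centring. The sign of 5 uncalled probes changed under some alternatives: Gclm 1439050_at, Gpx1 ILMN_1241367, Gpx4 ILMN_3100812, Prdx4 ILMN_2717045 and Gss 1448273_at. The Illumina arrays share the numbers 1 to 12 between strains. Deviations of arrays of the same number had correlations of -0.43 to 0.29 over 12 pairs, and 0 arrays matched best with their own number. These values gave no sign of a pairing by number, but they cannot show that arrays of the same number were handled apart. With the number as a replicate block, 4 of the 10 probes were still called. Probes without Affymetrix values and dim probes limit what can be read for Gss, Gpx4 and Prdx1.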
